A study of Mus musculus with 36 samples.

Results

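The ductal epithelium and the peri-ductal stroma of the unexposed ERα(+/+) fetal mammary gland were compared. The 6 arrays labelled wild type and vehicle were used, 3 of stroma and 3 of epithelium, out of 36 arrays in 12 groups that also cover ERα(−/−) fetuses and exposure to bisphenol A (BPA) or the synthetic estrogen ethinyl estradiol (EE2). Each array held RNA from the fourth inguinal gland of a female C57BL/6 fetus at E19 whose dam carried a pump that released vehicle only, with DMSO, from E8. The glands came from fetuses of separate litters, and from each gland a laser cut the ducts into one tube and the stroma close around them into another. The stroma and the epithelium array with the same replicate number were therefore taken as 1 gland, and the glands are called 1, 2 and 3 here. The ERα(−/−) mice, used below for comparison, carry the deletion in both compartments.

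The fetal mammary gland grows from a bud of the skin epithelium into a small branched tree of ducts, and the ducts extend into a pad of mesenchyme that turns into fat. Its epithelium has an inner, luminal layer marked by Krt8 and Krt18 and an outer, basal layer marked by Krt5 and Krt14, held together by E-cadherin junctions and desmosomes. The stroma around the ducts holds fibroblasts, young adipocytes, vessels, macrophages and mast cells in a matrix rich in collagen. Signals pass both ways between the compartments, and estrogen, progesterone and other hormones later act through receptors that are not present in every layer.

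Each value is a signal intensity, the brightness of a probe set that reports 1 transcript, in the linear units of the deposited files, and differences are given as log2 stroma minus epithelium, so that positive values are higher in the stroma. Signals of different genes are not set against each other, since each probe set has its own brightness. In tissue that was pooled in 1 tube, fewer cells of a type and less RNA per cell cannot be told apart. The median signal of an array was 37.2, 12 and 37.2 in the stroma and 36.4, 10.9 and 38.2 in the epithelium of glands 1 to 3, so that both arrays of gland 2 were dim, and on the 6 arrays the Gapdh control was 8.66 to 14.5 times brighter at its 3′ end than at its 5′ end, while the actin control had a ratio of 0.743 to 1.44.

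The labels were first set against marker genes of each compartment. The 29 epithelium markers summed to 4439, 4613 and 10244 in the stroma of glands 1 to 3 and to 26160.4, 22104.5 and 26410 in their epithelium, so that each epithelium array stood above each stroma array. The 24 fibroblast markers summed to 76541.5, 79648 and 99517 in the stroma and 21131, 15381 and 60196 in the epithelium. The third epithelium array stood apart from the other two, and it held the highest fibroblast sum among the 18 epithelium arrays of the series. Its 12 adipocyte markers summed to 44775, against 4955 and 5070 on the epithelium arrays of glands 1 and 2, which were the lowest of all 18, and 35739.6, 44141 and 55762 in the stroma.

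The 18 blood endothelium markers summed to 482, 375 and 5077 in the epithelium and 6594, 8542 and 9409 in the stroma. Both arrays of gland 3 also carried genes of the keratinised epidermis, whose 18 markers summed to 19971 in its stroma and 15940.4 in its epithelium, against 173 to 538 on the other 4 arrays. Krt1, a keratin of the upper epidermis, had signals of 2.7, 4.6 and 6276.5 in the stroma and 10.8, 25.5 and 6297 in the epithelium. The skeletal muscle markers were highest on 1 array, the epithelium of gland 1, with a sum of 2775 against 135 to 748 on the others. The part of these tissues in the results was not tested. Values without gland 3 are given for the stromal gene lists described below, and for each gene printed with its difference whose call or sign changed, or whose difference moved by over 1.5 times, when that gland was left out.

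**Figure D1:**
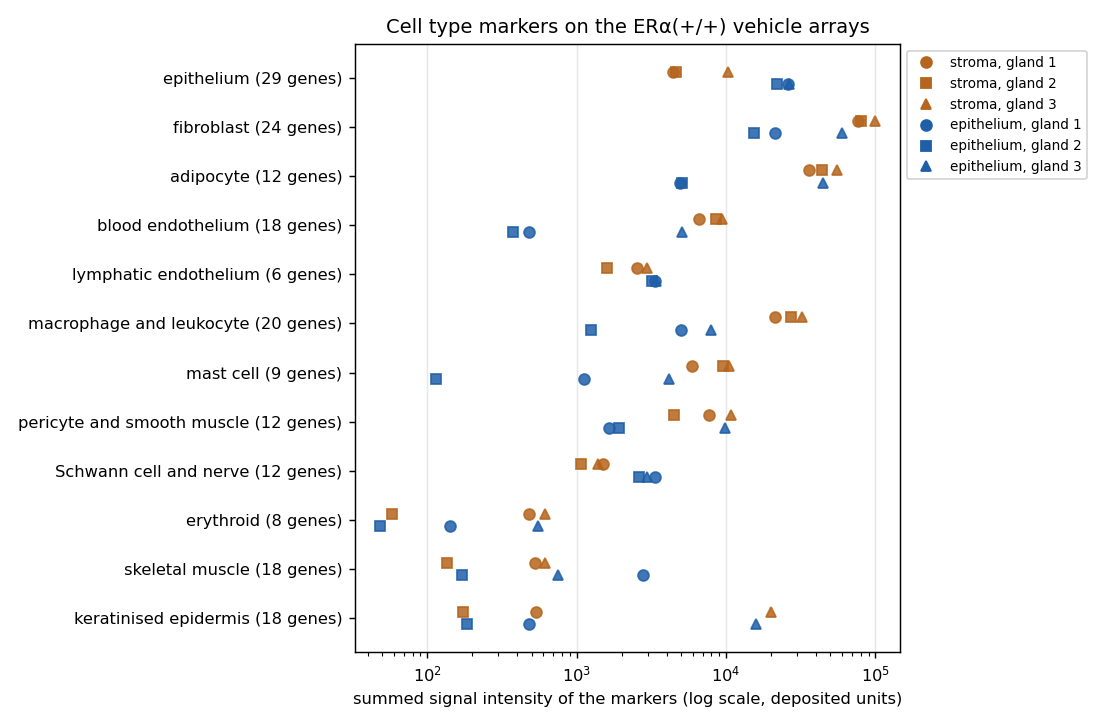
Summed signal intensity of cell type markers (log axis, deposited units) on the 6 ERα(+/+) vehicle arrays, stroma in brown and epithelium in blue, with a point shape for each gland. The epithelium array of gland 3 (blue triangle) lies near the stroma for fibroblast, adipocyte, endothelium and pericyte markers, and both arrays of gland 3 are high in epidermis markers.

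Across all probe sets the log2 values parted the glands more than the compartments. The first principal component of the 6 arrays held 40.5% of the variance and separated the dim gland 2 from the other glands, with 0.331% of its own variance between the compartments. The second held 24.0%, of which 58.7% lay between stroma and epithelium. After quantile normalization, which gives every array the same distribution of values, the first component held 29.1% and 56.8% of that lay between the compartments. On this component the stroma arrays scored 64.0, 202 and 89.4 and the epithelium arrays −78.7, −298 and 20.9, so the epithelium of gland 3 was on the stromal side of 0. The second component then held nearly as much, 28.0%, with 1.39% of that between the compartments. It parted gland 2, at −277 and −146, from the other arrays, at 87.4 to 114.

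**Figure D2:**
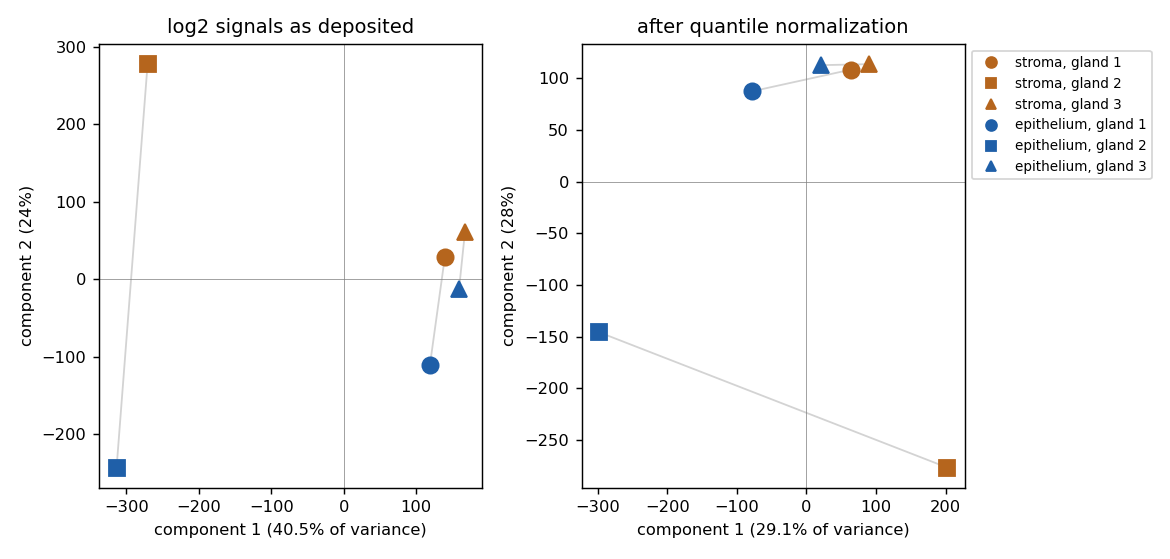
Scores of the 6 arrays on principal components 1 and 2, from log2 signals as deposited (left) and after quantile normalization (right), with grey lines joining the compartments of a gland. Gland 2 (squares) lies apart on the left, and on the right stroma scores from 64.0 to 202 on component 1 and epithelium from −298 to 20.9.

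Compartment and gland were fitted together on the 36 arrays with limma, and 55 of 45101 probe sets passed an adjusted p of 0.05, which is named a call here. Of these, 29 were higher in the stroma (0.0643%) and 26 lower (0.0576%), in all 0.122% of those tested. At 1 probe set for each of 18193 genes, 17 genes were higher in the stroma (0.0934%) and 11 lower (0.0605%). Without gland 3 the fit called 197 genes higher (1.08%) and 49 lower (0.269%). Leaving out gland 3 gave 335 probe sets higher and 97 lower, leaving out gland 1 gave 0 and 5, and leaving out gland 2 gave 0 and 0. After quantile normalization of all arrays, 2 probe sets were higher and 6 lower, or 0 genes (0%) and 1 gene (0.0055%). The 3 stroma arrays lay wholly above the 3 epithelium arrays for 890 genes (4.89%) and wholly below them, with no overlap, for 955 (5.25%). The median log2 difference over all genes was 0.041, and 0.031 without gland 3. In simulated data with 3 glands the fit resolved large differences only. It found 50% of changes of 4 log2 units, 22.5% of changes of 3 and 0% of changes of 1. The simulation held 200 changed probe sets of each size among 45101, with normally distributed noise and no compartment difference in the other groups. The share found in other settings was not simulated.

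The 11 genes higher in the epithelium are given first. Oxtr (probe set 1440888_at), the oxytocin receptor through which milk is later expelled, had signals of 1.5, 6.3 and 6.5 in the stroma and 292, 254 and 152 in the epithelium. Its log2 difference was −5.83 ± 0.86 (adjusted p = 0.0358), and the groups did not overlap. Zfp750 (1437469_at), a transcription factor of epithelial differentiation, had signals of 3, 2.6 and 2.7 in the stroma and 111, 172 and 88.3 in the epithelium. Its difference of −5.43 ± 0.61 (adjusted p = 0.00445) was the only gene-level call that also passed after quantile normalization, at −5.14 (adjusted p = 0.00182). Tmem30b (1433579_at), a subunit of flippases that move phospholipids across membranes, gave 1.4, 8.2 and 12.9 in the stroma and 295, 277 and 182.5 in the epithelium. It differed by −5.54 ± 1.02 (adjusted p = 0.0483), with every stroma array at or below 12.9 and every epithelium array at or above 182.5.

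Among the factors that set luminal fate, Gata3 (1448886_at) had signals of 2.3, 0.7 and 1.3 in the stroma and 145, 4.5 and 65.3 in the epithelium. It differed by −4.77 ± 0.85 (adjusted p = 0.0483), although its epithelial signal in the dim gland 2 was hardly above the stromal ones. Runx1 (1422864_at), a transcription factor of blood and epithelium, measured 304, 212 and 189 in the stroma and 2517, 777 and 1879 in the epithelium. The difference was −2.74 ± 0.50 (adjusted p = 0.0483), and both factors missed the threshold without gland 3, at −4.33 (adjusted p = 0.0676) and −2.46 (adjusted p = 0.0757). Lgr5 (1450988_at), a receptor for R-spondins that marks stem cells in several epithelia, showed 82.1, 65.5 and 47.1 in the stroma and 1043, 725 and 743 in the epithelium. It was lower in the stroma of all 3 glands, with a difference of −3.71 ± 0.66 (adjusted p = 0.0483), and gave −3.57 (adjusted p = 0.0595) without gland 3.

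St14 (1418076_at), the membrane protease matriptase, had signals of 57.3, 12.3 and 66.7 in the stroma and 947, 86.5 and 448 in the epithelium and a difference of −3.20 ± 0.51 (adjusted p = 0.038). Cdh1 (1448261_at), E-cadherin, had 53, 4.9 and 226.5 in the stroma and 1368.5, 138 and 1032 in the epithelium. Its difference of −3.90 ± 0.71 (adjusted p = 0.0483) came with an overlap, because the stroma of gland 3 exceeded the epithelium of the dim gland 2. Bmp7 (1418910_at), a secreted growth factor, measured 11.8, 9.6 and 19 in the stroma and 257, 215 and 123 in the epithelium. It differed by −3.88 ± 0.67 (adjusted p = 0.0483) with no overlap. Ifnlr1, a receptor chain for lambda interferons, and Xpo4, a nuclear transport receptor, completed the 11 with −4.88 ± 0.86 (adjusted p = 0.0483) and −5.42 ± 0.95 (adjusted p = 0.0483). The other probe sets of Xpo4 differed by −0.29 (adjusted p = 0.937) and −0.62 (adjusted p = 0.725), so its call rests on 1 probe set. In the ERα(−/−) vehicle glands Xpo4 differed by −0.34, and the other 10 between −1.96 and −4.94.

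**Figure D3:**
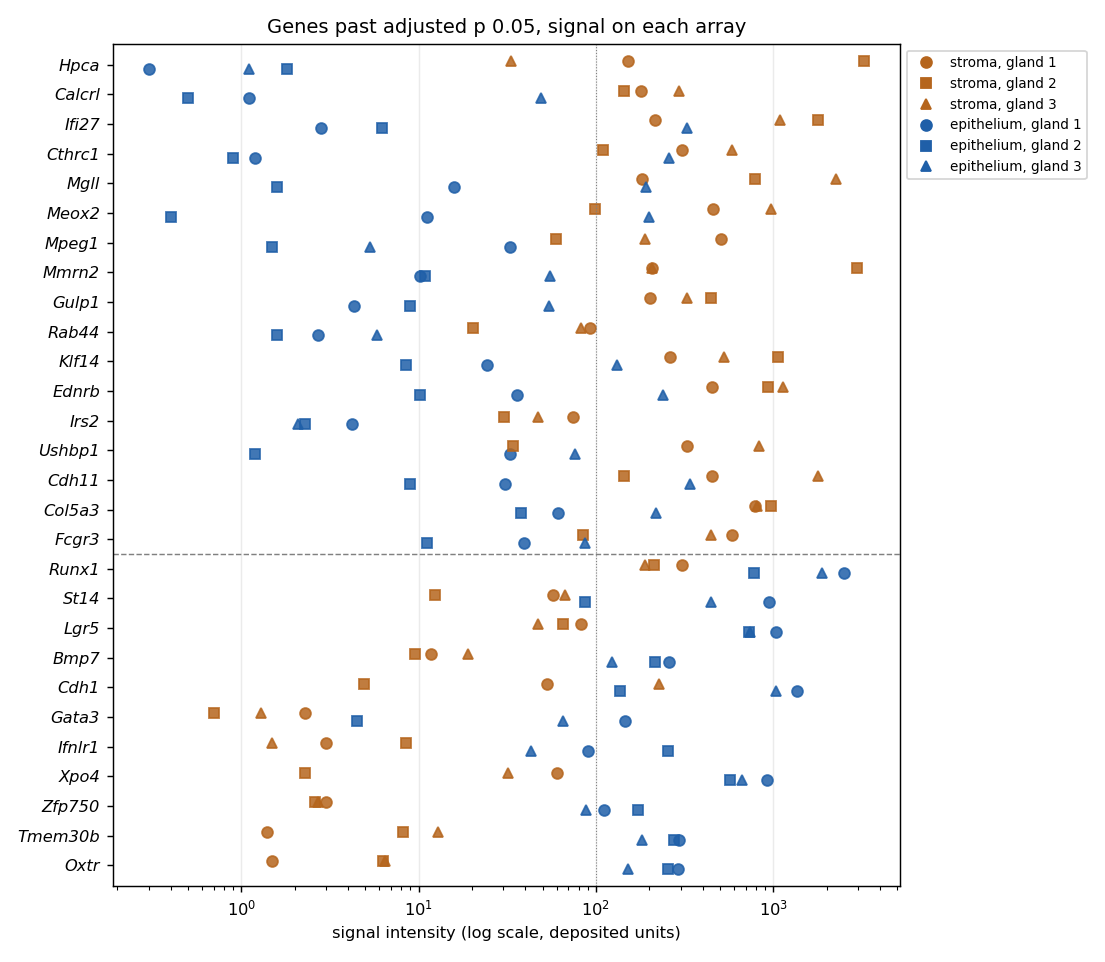
Signal intensity (log axis, deposited units) on each array for the 28 genes past an adjusted p of 0.05, stroma in brown and epithelium in blue, with a point shape for each gland; genes above the dashed line were higher in the stroma. The epithelium of gland 3 (blue triangle) is the highest epithelial point for most stromal genes, as for Cthrc1 and Meox2, and lies with the other epithelium arrays for Lgr5 and Zfp750.

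The RefSeq table of promoters (GRCm38.p6, 250 bases before to 50 after a start site) held 16 of the 28 genes, 5 of them higher in the epithelium and 11 higher in the stroma. The letters CACCTG, an E-box that the repressors of the Snail and Zeb families are known to bind, were searched on both strands. They stood in 4 of the 5 epithelial genes (Oxtr, Tmem30b, Ifnlr1 and Runx1) and in 1 of the 11 stromal genes (Hpca), against 22.6% of 27025 genes and 20.2% of 32851 promoters in the table. Such a match is a description of the letters and of few genes, not of a bound site. The Grainyhead core ACCGGT stood in 1 of 5 and 2 of 11, the TEAD letters GGAATG in 1 of 5 and 0 of 11, and the AP-1 letters TGANTCA in 0 of 16, against 2.68%, 16.6% and 8.97% of all genes. The promoters of the 4 epithelial genes with the E-box are printed 5′ to 3′ on the strand of the gene, with every searched motif in capitals, to show where the letters lie; Tmem30b held the E-box 4 times, and Ifnlr1 also the Grainyhead core. In Runx1 the E-box reads CAGGTG, the same letters on the other strand.
Oxtr (chr6:112489776-112490075, minus strand): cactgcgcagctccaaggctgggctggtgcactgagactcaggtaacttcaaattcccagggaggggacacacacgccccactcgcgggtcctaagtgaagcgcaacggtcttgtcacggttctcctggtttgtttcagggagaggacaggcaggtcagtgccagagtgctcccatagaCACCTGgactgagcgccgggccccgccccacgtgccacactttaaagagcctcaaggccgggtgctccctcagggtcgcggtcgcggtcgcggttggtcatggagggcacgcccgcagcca
Tmem30b (chr12:73546346-73546645, minus strand): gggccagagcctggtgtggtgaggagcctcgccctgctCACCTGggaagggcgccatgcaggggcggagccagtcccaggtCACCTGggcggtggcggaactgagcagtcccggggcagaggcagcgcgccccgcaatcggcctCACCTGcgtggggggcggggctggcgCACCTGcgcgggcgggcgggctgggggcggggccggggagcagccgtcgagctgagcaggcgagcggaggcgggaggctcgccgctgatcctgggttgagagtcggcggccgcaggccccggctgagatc
Ifnlr1 (chr4:135686207-135686506, plus strand): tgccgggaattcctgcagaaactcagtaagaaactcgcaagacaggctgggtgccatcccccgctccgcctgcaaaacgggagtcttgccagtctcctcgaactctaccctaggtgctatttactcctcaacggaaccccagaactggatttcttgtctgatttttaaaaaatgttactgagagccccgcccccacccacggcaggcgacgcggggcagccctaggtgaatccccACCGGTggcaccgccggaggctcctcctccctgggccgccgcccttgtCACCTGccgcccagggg
Runx1 (chr16:92826025-92826324, minus strand): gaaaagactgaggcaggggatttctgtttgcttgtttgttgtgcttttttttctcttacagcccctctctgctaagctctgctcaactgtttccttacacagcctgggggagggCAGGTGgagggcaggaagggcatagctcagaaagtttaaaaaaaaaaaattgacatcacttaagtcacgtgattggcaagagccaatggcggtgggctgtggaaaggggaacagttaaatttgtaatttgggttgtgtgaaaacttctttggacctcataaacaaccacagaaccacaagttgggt

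The 17 genes higher in the stroma follow. Calcrl (1425814_a_at), the receptor chain shared by adrenomedullin and CGRP that is prominent in endothelium, had signals of 179, 144.5 and 295 in the stroma and 1.1, 0.5 and 48.7 in the epithelium. The difference was 6.04 ± 0.98 (adjusted p = 0.0425) with no overlap, and 7.76 (adjusted p = 0.00493) without gland 3. Its other probe sets differed by 0.23 (adjusted p = 0.958) and 0.36 (adjusted p = 0.951). Mmrn2 (1456768_a_at), a matrix protein of blood vessels, measured 208, 2955 and 206 in the stroma and 10.2, 10.8 and 55 in the epithelium. It differed by 4.78 ± 0.88 (adjusted p = 0.0483), with every epithelium array at or below 55. Other Mmrn2 probe sets gave 1.94 (adjusted p = 0.206), 0.27 (adjusted p = 0.963) and 1.06 (adjusted p = 0.693). Ednrb (1437347_at), an endothelin receptor, had 452, 929.7 and 1131 in the stroma and 36.1, 10.2 and 239.5 in the epithelium. It was higher in each stroma array than in any epithelium array, by 4.13 ± 0.69 (adjusted p = 0.0471). Other Ednrb probe sets gave 1.16 (adjusted p = 0.536) and 0.83 (adjusted p = 0.685). Mpeg1 (1427076_at), the perforin of macrophages, had 510, 59.8 and 189.9 in the stroma and 32.6, 1.5 and 5.3 in the epithelium. It differed by 4.82 ± 0.77 (adjusted p = 0.038), and Fcgr3, an antibody receptor of leukocytes, by 3.06 ± 0.54 (adjusted p = 0.0483).

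Col5a3 (1419703_at), a chain of the fibrillar collagen V, had signals of 787, 976 and 811 in the stroma and 61.1, 38 and 219 in the epithelium. Its difference of 3.42 ± 0.58 (adjusted p = 0.0483) was 4.19 (adjusted p = 0.0107) without gland 3. Cthrc1, a secreted protein of collagen-forming cells, gave 306, 109.7 and 588 in the stroma and 1.2, 0.9 and 257 in the epithelium. Here only the epithelium of gland 3 reached the stromal range, and the difference was 5.37 ± 0.93 (adjusted p = 0.0483), or 7.46 (adjusted p = 0.000809) without that gland. Meox2, a homeobox factor of mesoderm, showed the same layout with 455, 98.4 and 976.5 in the stroma and 11.2, 0.4 and 198.5 in the epithelium, a difference of 5.20 ± 0.96 (adjusted p = 0.0483). Cdh11, the cadherin of mesenchymal cells, had 453, 144 and 1782 in the stroma and 30.9, 9 and 337 in the epithelium and differed by 3.43 ± 0.63 (adjusted p = 0.0483), in the opposite direction to E-cadherin. Mgll, the lipase that splits monoglycerides in fat cells, differed by 5.34 ± 0.96 (adjusted p = 0.0483).

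Hpca (1450930_at), a calcium sensor best known from neurons, had the largest difference of the 28 genes, 8.24 ± 1.49 (adjusted p = 0.0483). It rested on stroma signals of 151, 3250.5 and 33.4, spread widely, against 0.3, 1.8 and 1.1 in the epithelium, values so low that their order carries no information. The other Hpca probe set gave 0.49 (adjusted p = 0.852). The other stromal genes were Ifi27, Gulp1, Klf14, Rab44, Irs2 and Ushbp1, with differences from 3.87 to 5.39. Rab44 and Irs2 stayed below a mean signal of 100 in both compartments, and Irs2 was the stromal gene whose call was lost without gland 3, at 3.94 (adjusted p = 0.0594). Of the 28 genes, 15 had 28 further probe sets, and all 28 had the same sign while 0 were called, so each call rests on 1 probe set. With 16 added to every value, which damps differences between dim signals, 16 of the 17 stromal and 10 of the 11 epithelial genes passed again. Those lost were Irs2, at 1.77 (adjusted p = 0.0928), and Gata3, at −1.89 (adjusted p = 0.0866). Without gland 3, 16 stromal and 8 epithelial genes passed again.

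The epithelial programme was then read through lists of genes. Of the 29 epithelium markers, 2 were lower in the stroma past the threshold (Cdh1 and St14), against 0.0605% of all genes, and 0 were higher, while 18 were higher on every epithelium array than on every stroma array, against 5.25% of all genes, and 1 (Ovol1) the other way. Their median log2 difference was −2.81, against 0.041 over all genes, and by gland it was −2.53, −2.42 and −2.43. Krt8, the luminal keratin, had signals of 164, 157 and 53.2 in the stroma and 1909.5, 2663 and 1940.4 in the epithelium. The difference was −4.27 ± 0.85 (adjusted p = 0.0578), just outside the threshold. Its partner Krt18 had 171, 762 and 5.2 in the stroma and 1899, 2224 and 1492 in the epithelium, a difference of −4.39 ± 0.99 (adjusted p = 0.0766, or −2.51 with 0.215 without gland 3). Krt14, the basal keratin, had 127, 26.6 and 694 in the stroma and 655, 535 and 1133 in the epithelium, a difference of −2.47 ± 0.68 (adjusted p = 0.126). The stroma array of gland 3, with its epidermal genes, was thus above the epithelium of glands 1 and 2 for Krt14 but lowest of all for Krt8 and Krt18.

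Desmosome components gave a median of −1.27 over 12 genes, with 0 calls. Of the 12, 4 lay wholly lower in the stroma, against 5.25% of all genes. Dsp, desmoplakin, had 398, 152 and 6149 in the stroma and 4725, 3495 and 7834 in the epithelium, a difference of −2.81 ± 1.10 (adjusted p = 0.283). Dsg2, a desmosomal cadherin of simple epithelium, had 231, 28.8 and 223 in the stroma and 820.5, 1032 and 814.5 in the epithelium, a difference of −2.95 ± 0.79 (adjusted p = 0.117). The stromal Dsp signal was high in gland 3 only, and Dsg2 was below every epithelium array on all 3 stroma arrays. Claudins and tight junction proteins had a median of −1.65 over 20 genes, with 6 wholly lower against the same 5.25%. Cldn6, a claudin of embryonic epithelia, had 291, 1437 and 13.1 in the stroma and 3262, 3679.7 and 2459 in the epithelium, a difference of −4.13 ± 1.12 (adjusted p = 0.121, or −2.42 with 0.372 without gland 3). Cldn5, the claudin of vessel walls, had the opposite sign, with 306, 58.4 and 518 in the stroma and 4.7, 11.1 and 325 in the epithelium, a difference of 3.03 ± 0.77 (adjusted p = 0.105, or 4.21 with 0.0299 without gland 3), and its ranges overlapped. Polarity and apical trafficking genes had a median of −2.18, with 1 call (Tmem30b) against 0.0605% of all genes and 8 of 18 wholly lower against 5.25%. Rab25, a GTPase of apical recycling, differed by −4.85 ± 0.99 (adjusted p = 0.0622).

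The surface proteases and their inhibitors had a median of −1.68 over 9 genes. Prss8, the protease that acts with matriptase, had signals of 47.6, 0.4 and 5 in the stroma and 154.5, 808 and 195 in the epithelium and a difference of −5.99 ± 1.39 (adjusted p = 0.0827). Spint1 and Spint2, which inhibit both, differed by −2.43 ± 0.60 (adjusted p = 0.0967) and −2.42 ± 0.65 (adjusted p = 0.12). All 4 of St14, Prss8, Spint1 and Spint2 were lower on every stroma array than on any epithelium array. Among epithelial regulators, Esrp1, a splicing factor of epithelial isoforms, had 73.6, 2.3 and 108 in the stroma and 828, 318 and 941 in the epithelium, a difference of −4.57 ± 1.16 (adjusted p = 0.104). Its relative Esrp2 had 722, 541 and 1043 in the stroma and 1285, 671 and 1310 in the epithelium, ranges that overlapped. Elf5 and Ehf, ETS factors of secretory and simple epithelium, differed by −5.85 ± 1.20 (adjusted p = 0.0622) and −5.13 ± 1.11 (adjusted p = 0.0643, or −6.18 with 0.0414 without gland 3). Of 16 mammary lineage factors, Gata3 and Runx1 were called, against 0.0605% of all genes called lower. Foxa1, the partner of the estrogen receptor, had 9.3, 2.8 and 6.1 in the stroma and 53.5, 8.3 and 108 in the epithelium, a difference of −2.75 ± 0.98 (adjusted p = 0.236). Sox10, a factor of glia and of fetal mammary stem cells, measured 227, 247 and 754 in the stroma and 1488, 1299.6 and 1388 in the epithelium, a difference of −2.00 ± 0.69 (adjusted p = 0.216), lower on each stroma array.

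In the mesenchymal programme, 7 of 23 transcription factors were wholly higher in the stroma, against 4.89% of all genes, and 1 (Osr1) was wholly lower, against 5.25%. The 1 call (Meox2) stood against 0.0934% of all genes called higher, and the median of the list was 2.86. Without gland 3 the fit called 6 of them, against 1.08% of all genes, with a median of 3.52. Twist1, a driver of mesenchymal fate, had signals of 297, 740.1 and 1429.8 in the stroma and 22.4, 0.9 and 214 in the epithelium. Its difference was 5.38 ± 1.02 (adjusted p = 0.0525) in all glands and 6.71 (adjusted p = 0.0162) without gland 3. Ebf3 had 778, 2466 and 1499 in the stroma and 3.1, 1.4 and 951 in the epithelium, and its difference went from 6.47 ± 1.26 (adjusted p = 0.0553) to 9.38 (adjusted p = 0.000809) without gland 3. Zeb2, a repressor of epithelial genes, had 1631, 860 and 2794.5 in the stroma and 139, 68 and 578 in the epithelium, a difference of 3.16 ± 0.74 (adjusted p = 0.0834), wholly higher in the stroma. Snai2, a repressor of the same kind, had 3148, 1976 and 4146 in the stroma and 1169.8, 17.7 and 3264.5 in the epithelium, a difference of 2.86 ± 1.04 (adjusted p = 0.243), with overlap. Osr1, a factor of mesoderm elsewhere, had 168, 20.7 and 218 in the stroma and 846, 477 and 746 in the epithelium, a difference of −2.88 ± 0.75 (adjusted p = 0.11). It was higher on every epithelium array.

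Fibroblast markers had a median of 2.91 over 24 genes, with 0 calls, 12 wholly higher against 4.89% of all genes, and 12 called without gland 3 against 1.08%. By gland the median was 2.79, 4.29 and 1.06, and 3.67 without gland 3. Col1a1, the main fibrillar collagen, had 10482.5, 11143 and 12471 in the stroma and 3480.1, 2719 and 8838 in the epithelium, a difference of 1.37 ± 0.45 (adjusted p = 0.192). Dcn, decorin, had 2745, 1877 and 3583.5 in the stroma and 144, 31.5 and 1683 in the epithelium. It differed by 3.75 ± 0.72 (adjusted p = 0.0545), and by 5.08 (adjusted p = 0.00714) without gland 3. Pdgfrb, the receptor of fibroblasts and pericytes, differed by 3.21 ± 0.68 (adjusted p = 0.0624, or 3.93 with 0.0339 without gland 3) and Dpt, dermatopontin, by 4.71 ± 1.12 (adjusted p = 0.0886, or 6.45 with 0.0235 without gland 3).

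Matrix genes divided by family. Small proteoglycans had a median of 2.13 (11 genes), elastic fibre genes 2.09 (11), matricellular genes 1.40 (16), fibrillar collagens and their enzymes 1.15 (20), and basement membrane genes −0.03 (22). Col5a3 was the single call among them, against 0.0934% of all genes called higher. Without gland 3 the medians were 2.29, 2.09, 1.49, 1.38 and −0.04, with 2, 2, 1, 4 and 2 calls, against 1.08% of all genes. Within the basement membrane, Nid1, nidogen, had 3867, 3351 and 5067.5 in the stroma and 613, 234 and 2800.1 in the epithelium, a difference of 2.45 ± 0.61 (adjusted p = 0.1, or 3.25 with 0.0396 without gland 3). Nid2 had 799.7, 1945 and 1285 in the stroma and 66, 3.9 and 547 in the epithelium, a difference of 4.60 ± 1.01 (adjusted p = 0.069, or 6.28 with 0.0138 without gland 3). Both lay wholly on the stromal side. Lama1, a laminin chain, had 50.3, 39.8 and 7.6 in the stroma and 75.4, 591 and 96 in the epithelium, a difference of −2.71 ± 0.63 (adjusted p = 0.0827), and Col7a1, the anchoring fibril collagen, had −2.37 ± 0.72 (adjusted p = 0.162), both wholly on the epithelial side. The list median near 0 thus covered members on either side.

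Other matrix receptors and enzymes split in the same way. Itgb4, the integrin chain of hemidesmosomes, had 19.7, 2.8 and 38 in the stroma and 388, 392 and 217.5 in the epithelium, a difference of −4.65 ± 1.23 (adjusted p = 0.115). Itga1, a collagen receptor chain, had 474, 1275 and 1403 in the stroma and 107, 47.6 and 437 in the epithelium, a difference of 2.86 ± 0.83 (adjusted p = 0.14). Timp1 and Timp4, inhibitors of matrix proteases, lay on opposite sides with 3.62 ± 0.76 (adjusted p = 0.0622) and −3.78 ± 0.88 (adjusted p = 0.0827, or −4.72 with 0.0447 without gland 3). Tnc, tenascin C, had 2049, 2474 and 1867 in the stroma and 662, 497 and 901 in the epithelium, a difference of 1.67 ± 0.70 (adjusted p = 0.318), wholly higher in the stroma, and Vcan, versican, had 4812, 6283.5 and 4781 in the stroma and 7527, 4526 and 5386 in the epithelium, a difference of −0.11 ± 0.47 (adjusted p = 0.956), with overlap. Of these 6 genes, 0 passed the test.

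The fat cell genes differed little between the compartments of gland 3. The 12 adipocyte markers had a median of 2.98 with 0 calls, and by gland 4.03, 3.63 and 0.46. Without gland 3 it was 3.79, with 4 of 12 called against 1.08% of all genes. Adipoq, adiponectin, had signals of 2407, 3415 and 5898 in the stroma and 105, 81.8 and 4752 in the epithelium. Its difference was 3.40 ± 1.05 (adjusted p = 0.167), and 4.95 (adjusted p = 0.054) without gland 3. Fabp4, the fatty acid carrier of adipocytes, had 9943, 12365 and 13543 in the stroma and 2034, 2253.5 and 11688 in the epithelium. It gave 1.65 ± 0.56 (adjusted p = 0.211) and 2.37 (adjusted p = 0.092). Pparg, the master regulator of fat cells, had 363, 390.3 and 1340.1 in the stroma and 63.5, 11 and 948 in the epithelium, a difference of 2.72 ± 1.13 (adjusted p = 0.315). For each of these 3 genes the stroma and epithelium ranges met only through the epithelium of gland 3.

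Lipid droplet and lipolysis genes had a median of 2.21 (13 genes, 1 call, Mgll), and 3.42 without gland 3, also with 1 call. Adipokines and lipid uptake genes had 2.67 (13 genes, 0 calls), and 3.92 with 4 calls without gland 3. Adipogenic factors had 1.58 (15) and fatty acid synthesis enzymes 1.09 (16), and without gland 3 1.81 with 1 call and 1.42 with 0. Of all genes, 0.0934% were called higher, and 1.08% without gland 3. Cholesterol synthesis enzymes lay below 0, at −0.28 (18), or −0.57 without gland 3. Retn, resistin, had 2225, 6318 and 4992 in the stroma and 80.9, 22.5 and 2763 in the epithelium, a difference of 4.59 ± 1.15 (adjusted p = 0.101, or 6.46 with 0.0235 without gland 3). Hcar1, the lactate receptor of adipocytes, had 44.4, 14.2 and 120.4 in the stroma and 4.5, 0.7 and 14.8 in the epithelium, a difference of 3.56 ± 1.41 (adjusted p = 0.29). Cebpa, an adipogenic factor, was wholly higher in the stroma with 1121, 1904 and 1724.5 in the stroma and 403, 29.9 and 871 in the epithelium, a difference of 2.82 ± 0.77 (adjusted p = 0.122). Agtr2, an angiotensin receptor of fetal mesenchyme, had 2487, 3853 and 4118 in the stroma and 192, 139 and 1378 in the epithelium, a difference of 3.36 ± 0.66 (adjusted p = 0.0578, or 4.25 with 0.0176 without gland 3).

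Vessel and blood cell genes followed. Blood endothelium markers had a median of 3.12 (18 genes), and by gland 4.26, 4.41 and 0.81. The list had 1 call (Mmrn2) against 0.0934% of all genes, and 4 wholly higher against 4.89%. Without gland 3 the median was 4.25, with 7 of 18 called against 1.08% of all genes. Kdr, the main VEGF receptor, had 511, 408 and 834.5 in the stroma and 2.7, 10.9 and 208 in the epithelium, a difference of 4.93 ± 1.03 (adjusted p = 0.0622, or 6.40 with 0.0197 without gland 3). Pecam1 had 1196, 1204 and 778 in the stroma and 36.6, 10.5 and 426 in the epithelium, a difference of 4.25 ± 1.18 (adjusted p = 0.126, or 5.94 with 0.0442 without gland 3). Macrophage and leukocyte markers had a median of 2.93 (20 genes, 1 call, Fcgr3), 13 were wholly higher in the stroma against 4.89% of all genes, and without gland 3 the median was 3.41 with 4 called against 1.08%. Csf1r, the receptor that macrophages need, had 2028, 1104 and 4293.5 in the stroma and 319, 1 and 431 in the epithelium, a difference of 5.36 ± 1.25 (adjusted p = 0.0832). C1qb, a complement chain made by macrophages, had 1862, 7119 and 8258 in the stroma and 945, 217 and 1194 in the epithelium, a difference of 2.93 ± 0.70 (adjusted p = 0.0896). These leukocyte genes had a median difference in gland 3 of 1.83 against 0.46 for the adipocyte markers.

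Mast cell markers had a median of 3.41 over 9 genes with 0 calls, and by gland 2.19, 6.74 and 1.32. Without gland 3 it was 4.45, with 2 called against 1.08% of all genes. Cpa3, a mast cell protease, had 2488, 3339.8 and 4269 in the stroma and 558, 31.3 and 1651 in the epithelium, a difference of 3.42 ± 0.98 (adjusted p = 0.138). Cma1, a chymase, had 1814, 2749 and 3209 in the stroma and 201, 50 and 1331 in the epithelium, a difference of 3.41 ± 0.82 (adjusted p = 0.0901, or 4.48 with 0.0362 without gland 3). Hdc, the enzyme that makes histamine, had 636, 1781 and 904 in the stroma and 139.5, 0.4 and 433 in the epithelium, a difference of 5.12 ± 1.45 (adjusted p = 0.133, or 7.15 with 0.0481 without gland 3). Kit, their growth factor receptor, overlapped between the compartments, at 50.4, 139 and 106 in the stroma and 72.4, 0.6 and 103 in the epithelium. Pericyte and smooth muscle markers had a median of 1.43, or 1.65 without gland 3, and 0 of 12 wholly on a side. Acta2, shared by smooth muscle and myoepithelium, had 1604, 982 and 4705 in the stroma and 482, 1663 and 4529 in the epithelium.

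**Figure D4:**
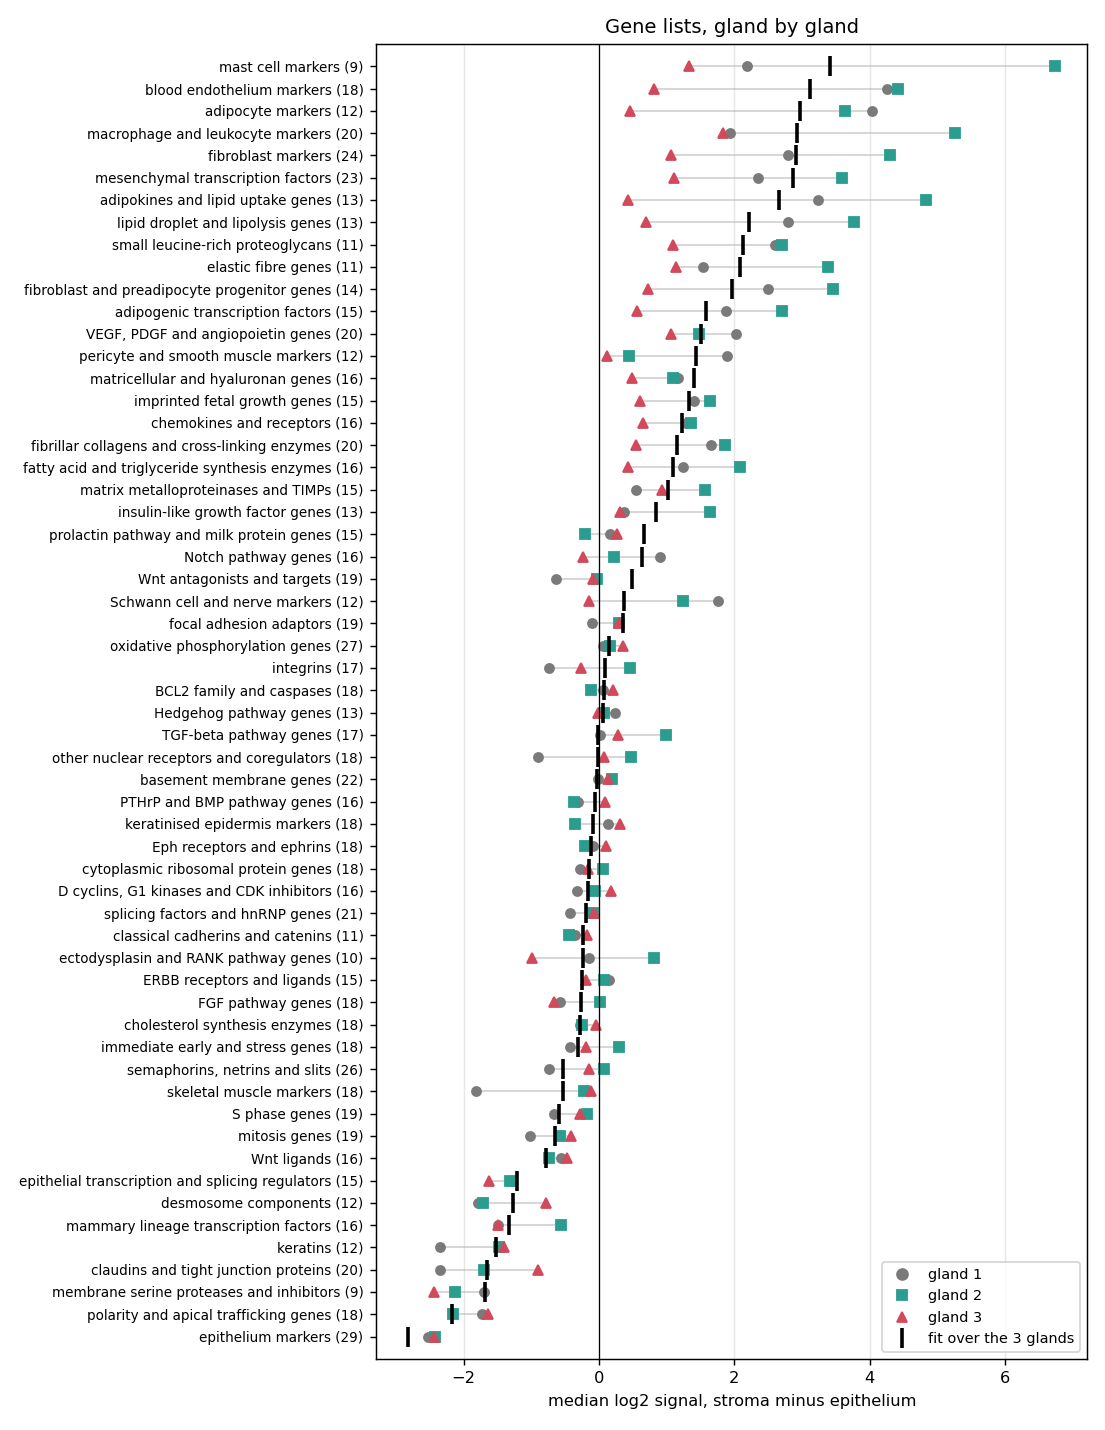
Median log2 signal, stroma minus epithelium, of gene lists with 9 or more measured genes (number in brackets) in gland 1 (grey circle), gland 2 (green square) and gland 3 (red triangle), with the fitted value over the 3 glands as a black bar. Gland 3 lies nearest 0 for the adipocyte, endothelium and fibroblast lists and with the other glands for the epithelium markers.

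Signals between the compartments were read through 58 pairs of a ligand and its receptor, measured on both sides. At an adjusted p under 0.05, 1 ligand (Bmp7, epithelium) and 1 receptor (Ednrb, stroma) were called, and 0 pairs had both partners called. Of all genes, 0.0934% were called higher in the stroma and 0.0605% lower. By the overlap of arrays, both partners lay wholly on a side in 3 pairs, and neither did in 30. The share of all genes was 4.89% wholly higher in the stroma and 5.25% wholly lower. Cxcl12, a chemokine of mesenchyme, had 587, 666 and 1022 in the stroma and 64.2, 11 and 412 in the epithelium, a difference of 3.47 ± 0.83 (adjusted p = 0.088, or 4.56 with 0.0346 without gland 3). Its receptor Cxcr4 had 2230.5, 4242 and 1742 in the stroma and 5302, 5529.5 and 4349.9 in the epithelium, a difference of −0.98 ± 0.49 (adjusted p = 0.423). The ligand was thus wholly higher in the stroma and the receptor wholly higher in the epithelium. Col4a1 and its receptor Ddr1 had the same layout, with 0.63 ± 0.40 (adjusted p = 0.552) and −1.44 ± 0.60 (adjusted p = 0.314). Tgfb1 and Tgfbr2 were both wholly higher in the stroma, with 4.12 ± 1.09 (adjusted p = 0.114) and 1.40 ± 0.77 (adjusted p = 0.469).

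Other growth factor families had members with either sign. Fgfr2, the FGF receptor of branching epithelia, had 968, 246 and 910 in the stroma and 3272, 1723 and 2079 in the epithelium, a difference of −1.92 ± 0.56 (adjusted p = 0.143). Its mesenchymal ligands Fgf7 and Fgf10 overlapped between the compartments, at 2.22 ± 1.27 (adjusted p = 0.496) and 1.35 ± 0.73 (adjusted p = 0.457, or 2.61 with 0.102 without gland 3). Tgfa, a ligand of the EGF receptor, had 14.3, 23.8 and 37.1 in the stroma and 422, 1114 and 55.5 in the epithelium, a difference of −3.67 ± 0.85 (adjusted p = 0.0809, or −5.22 with 0.0111 without gland 3). Egfr had 108, 23.8 and 103 in the stroma and 5.7, 11.4 and 69.9 in the epithelium, with overlap. Erbb3 had 426, 86.7 and 108 in the stroma and 1712, 1223 and 1016 in the epithelium, a difference of −3.02 ± 0.75 (adjusted p = 0.102), wholly higher in the epithelium. Pdgfc, a ligand for fibroblasts, had 218, 148 and 373 in the stroma and 1245, 1735 and 1139 in the epithelium, a difference of −2.56 ± 0.63 (adjusted p = 0.0999). Both Tgfa and Pdgfc lay wholly on the epithelial side.

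Of the 16 Wnt ligands, 0 were called and 2 were wholly higher in the epithelium, against 5.25% of all genes. Wnt10b, an early mammary Wnt, had 2.3, 0.9 and 4.1 in the stroma and 23.5, 17 and 56.3 in the epithelium, a difference of −3.79 ± 0.96 (adjusted p = 0.104). Nkd2, which damps Wnt signals, had 11.4, 0.8 and 402 in the stroma and 1281.5, 3618 and 2443 in the epithelium, a difference of −7.19 ± 1.60 (adjusted p = 0.0734, or −9.48 with 0.0235 without gland 3). Sfrp1, a secreted Wnt antagonist, had 35.7, 9.3 and 60.5 in the stroma and 803, 230 and 472 in the epithelium, a difference of −4.03 ± 0.85 (adjusted p = 0.0622). Both antagonists, like the called Lgr5, lay wholly on the epithelial side. The list of Wnt antagonists and targets as a whole had a median of 0.49 over 19 genes, or −0.05 without gland 3. Of the 19, 12 were positive and 7 negative, and 4 were wholly lower in the stroma, against 5.25% of all genes. Notch ligand Dll1 had 488, 84.7 and 276 in the stroma and 2439, 1547 and 938 in the epithelium, a difference of −2.76 ± 0.76 (adjusted p = 0.126). The 16 Notch pathway genes had a median of 0.64, with 10 positive and 6 negative. In the stroma 2 were wholly higher and 3 wholly lower, against 4.89% and 5.25% of all genes. In the Hedgehog pathway Gli2, a mesenchymal effector, had 113, 1877 and 141 in the stroma and 11.1, 21.2 and 65.9 in the epithelium, a difference of 3.64 ± 0.78 (adjusted p = 0.0625, or 4.91 with 0.0134 without gland 3). The FGF, Hedgehog, BMP and TGF-β pathway lists each had a median between −0.26 and 0.06.

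Growth genes of fetal life were read next. Igf2, the fetal insulin-like growth factor, had 7020.1, 6105 and 8956 in the stroma and 1906, 1962 and 6454 in the epithelium, a difference of 1.33 ± 0.44 (adjusted p = 0.197). Igf1 had 1250, 792 and 1659 in the stroma and 75.1, 11 and 1341 in the epithelium, a difference of 3.51 ± 0.95 (adjusted p = 0.121, or 5.11 with 0.0252 without gland 3). Igfbp2, which binds both, had 126, 17.9 and 25.2 in the stroma and 613, 1885 and 377 in the epithelium, a difference of −4.30 ± 0.84 (adjusted p = 0.0553), wholly higher in the epithelium. The imprinted growth genes had a median of 1.33 over 15 genes, and 1.76 with 1 call without gland 3, against 1.08% of all genes. In the stroma 7 were wholly higher and 0 wholly lower, against 4.89% and 5.25%. Among the 7 was Plagl1 at 10019.6, 10918 and 12175 in the stroma and 5419.7, 4809 and 9312 in the epithelium, a difference of 0.82 ± 0.43 (adjusted p = 0.447).

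**Figure D5:**
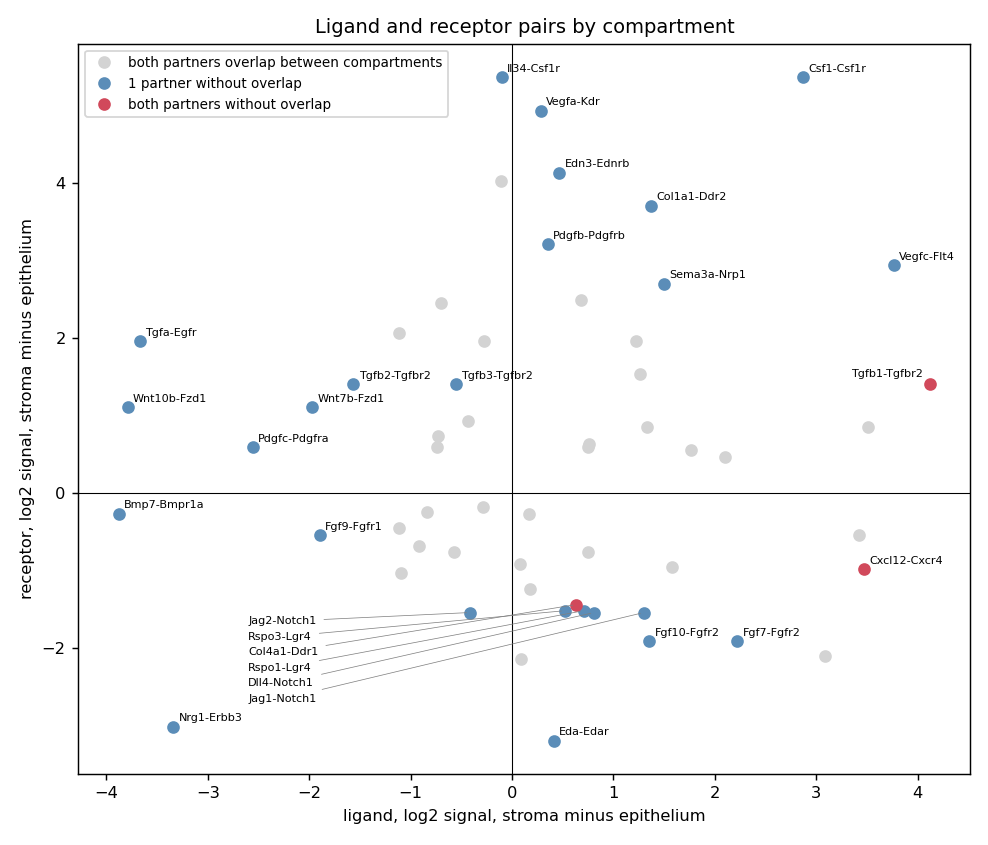
Log2 signal difference, stroma minus epithelium, of the ligand (horizontal) and of the receptor (vertical) for 58 pairs, coloured by how many partners had no overlap between the 3 stroma and the 3 epithelium arrays. Cxcl12 with Cxcr4, Col4a1 with Ddr1, and Tgfb1 with Tgfbr2 are the 3 pairs with both partners free of overlap.

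Receptors for hormones and for BPA were of interest because the study exposed other glands to estrogenic compounds. Of 7 measured receptors that are known to bind BPA, 0 were called. Esr1, which encodes ERα, had signals of 50.4, 201 and 397 in the stroma and 17.9, 1.1 and 44.8 in the epithelium. Its difference was 4.05 ± 0.90 (adjusted p = 0.0723), and each stroma array stood above each epithelium array, the closest being 50.4 against 44.8. Esr2, which encodes ERβ, was dim, with 26, 5.4 and 3.6 in the stroma and 22, 18.8 and 9.2 in the epithelium. Gper1, a membrane receptor for estrogen, had 162, 1207 and 599 in the stroma and 42.2, 79.2 and 223 in the epithelium, a difference of 2.43 ± 0.88 (adjusted p = 0.24). Thra, a thyroid hormone receptor, had 519, 1006 and 748 in the stroma and 269, 199 and 357 in the epithelium, a difference of 1.45 ± 0.57 (adjusted p = 0.287), wholly higher in the stroma. Nr3c1, Esrrg and Thrb overlapped between the compartments. Pgr, the progesterone receptor and a target of ERα, had 10.7, 11.4 and 20.1 in the stroma and 320, 218 and 444 in the epithelium. It lay wholly on the other side from Esr1, with −4.54 ± 1.15 (adjusted p = 0.104).

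The ribosomal, oxidative phosphorylation and splicing lists had medians near that of all genes, 0.041. Ribosomal protein genes had a median of −0.14 over 18, oxidative phosphorylation genes 0.15 over 27 and splicing factors −0.20 over 21, all with 0 calls. S phase and mitosis genes had lower medians, −0.60 (19 genes) and −0.65 (19), with 16 and 17 negative and 0 calls. In each list 4 were wholly lower in the stroma, against 5.25% of all genes. Ccnd1, cyclin D1, had 1395.5, 1190 and 1745 in the stroma and 4142, 5229.7 and 3025 in the epithelium, a difference of −1.50 ± 0.49 (adjusted p = 0.189). Mki67, a proliferation antigen, had 5404, 3557 and 5439 in the stroma and 6803, 5296 and 6458 in the epithelium, a difference of −0.38 ± 0.41 (adjusted p = 0.76). The 18 immediate early and stress genes had a median of −0.30, with 11 negative and 0 calls. In the stroma 3 were wholly higher and 2 wholly lower, against 4.89% and 5.25% of all genes. Egr1 and Egr2, immediate early factors, were among the 3, at 1.57 ± 0.48 (adjusted p = 0.162) and 1.84 ± 0.63 (adjusted p = 0.212), and the heat shock genes Hspa1b and Hspb1 were the lower ones, at −1.35 ± 0.61 (adjusted p = 0.359) and −1.27 ± 0.99 (adjusted p = 0.644).

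The same contrast was set against the ERα(−/−) vehicle glands, which come from other fetuses. Of the 28 called genes, 27 differed in the same direction there, and 4 of the 11 epithelial and 0 of the 17 stromal genes were called there too, where 0.0879% of all genes were called higher in the stroma and 0.225% lower. The stromal genes other than Irs2 differed there by 0.785 (Rab44) to 3.97 (Calcrl). Hpca, at 8.24 in ERα(+/+) glands, differed by 0.98 in ERα(−/−) glands (limma, adjusted p = 0.866). Fibroblast markers had a median of 2.91 in ERα(+/+) and 2.09 in ERα(−/−) glands, blood endothelium markers 3.12 and 2.30, and epithelium markers −2.81 and −3.16. When the difference between the genotypes was tested itself, 0 of 45101 probe sets passed (limma), with 2751 at an unadjusted p under 0.05. Quantile normalization gave 2, median centring 1 and the fit without gland 3 gave 1.

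The smallest p values belonged to genes that did not pass. Zfp759, a zinc finger gene, differed by 5.64 ± 0.75 between the genotypes (adjusted p = 0.063). Irs2, an adaptor of insulin signalling, had 74.1, 30.5 and 47.4 in the stroma and 4.2, 2.3 and 2.1 in the epithelium in ERα(+/+) glands, and 91.9, 6.5 and 7.7 against 125, 31.6 and 213 in ERα(−/−) glands. It was thus the 1 called gene with the opposite sign there, with a difference of 6.63 ± 1.03 (adjusted p = 0.136). Cdcp3, Wfdc12 and Zfp53 had adjusted p of 0.613 each. Against the mean of the other 5 groups, 0 probe sets passed and 4081 had an unadjusted p under 0.05, with Pdha2, Irs2, Wfdc5, Zfp759 and Fam83f at an adjusted p of 0.37 each. Over those groups the median of the fibroblast markers was 1.71 and that of the epithelium markers −3.38.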

How the data were processed

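Signal intensity was measured on Affymetrix mouse arrays with RNA amplified from laser-captured tissue. The deposited intensity values are linear, and per the labels they are GCOS output; the methods name RMA in Partek, but the scaling before deposit is not given in the sources used here. Values under 0.1 were set to 0.1 before log2 was taken. The file gives no detection calls, and precision is limited by how few arrays there were. Of 45101 probe sets, 34945 carried 1 gene symbol, 932 several, and the others none here. Each of 18193 genes is given at the probe set with the highest mean over all arrays. Some genes are not reported here.

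The fit used limma 3.58.1 (R 4.3.3) on all 36 arrays, with a compartment effect in each group and the gland as a fixed block. P values were adjusted by Benjamini-Hochberg across the whole array. Residual spread was shared by the 12 groups. The pairing comes from the labels' replicate numbers and the methods' capture from 1 gland. Residuals of same-numbered ERα(+/+) vehicle arrays correlated at 0.126, 0.145 and 0.163, against a mean of −0.0713 for other pairs. Residuals of the 3 arrays of a group sum to 0, so the other pairs are not an independent comparison. In the other 5 groups the same-numbered arrays had a mean of 0.064, with 4 of 15 over 0.1. ± is the standard error of the fit. Named genes were drawn from up to 15 rises and 15 falls (8 and 9 qualified) among genes past an adjusted p of 0.05 without overlap and with a mean signal of at least 100 in the higher compartment. The rule also admitted, in the 62 lists, the 3 brightest and the 3 largest differences each way, all members of short lists, and all genes of the 64 pairs drawn up. Not every gene that the rule admitted is printed. Genes outside this rule, among them the called genes that overlapped, Adipoq and the dim ones, were chosen after their values were seen. The members and the lists were chosen with earlier results of these data known. Lists are described by counts and medians, with no test. Alternatives covered scaling, offset, filters, variance models, the arrays fitted, the methods' t-test and each gland left out. The fit was tested on simulated data.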

Additional observations from a re-analysis of the deposited data

How the results depend on the processing

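With few glands the counts of probe sets depended on the processing, against 29 higher and 26 lower in the stroma in the analysis reported. Quantile normalization gave 2 and 6, centring on array medians 34 and 43, 16 added to every value 258 and 215, a minimum signal of 100 on 3 arrays 293 and 204, an intensity trend in the variance 409 and 218, array weights 1 and 5, and the methods' t-test 0 and 0. Without the replicate block the fit gave 10 and 20, so the pairing of stroma and epithelium changed the count. The 6 arrays fitted alone gave 0 and 0, with the block and without it. Leaving out 1 gland gave from 0 to 335 higher and from 0 to 97 lower. Among the list genes, 6 higher and 7 lower in the analysis reported, the same settings gave 0 and 0 (quantile), 6 and 10 (centring), 62 and 35 (16 added), 62 and 34 (minimum signal), 92 and 41 (trend), 0 and 0 (weights), 2 and 4 (no block), 0 and 0 (6 arrays, either way), 0 and 0 (t-test), and 46 and 32 with the mean of all probe sets of a gene, and leaving out 1 gland gave 0 to 59 and 0 to 11. The cause was not tested. The 3 further settings were chosen after seeing the data. Leaving out gland 3 with quantile normalization gave 284 and 110 probe sets (45 and 9 list genes), leaving out its epithelium array alone without the block 632 and 98 (101 and 15), and a minimum signal with quantile normalization 267 and 209 (50 and 29). The test of the difference from ERα(−/−) glands, with 0 in the analysis reported, gave 2 after quantile normalization, 1 after centring, 0 to 1 with 1 gland left out, and 4, 1 and 0 under the added settings; that from the other 5 groups gave 3, 23 and 0 there. The share of the component that parted the compartments went from 24.0% to 29.1% with quantile normalization. Of the 24 called genes with values in the text, 24 passed again with the trend or the minimum signal, 22 with 16 added or with centring, 20 without gland 3, 18 with the mean of probe sets, 4 without the block, 1 after quantile normalization, with array weights or without gland 1, and 0 without gland 2, with the 6 arrays alone or by the t-test; 0 of them changed sign. Of the genes named, 4 that were not called changed sign: Acta2 (−0.35 to 0.90 with 1 gland left out), Kit (−0.24 to 3.94), Vcan (−0.41 to 0.15) and Krt1 without the third epithelium array (1.36). Depth of the signal over background is not known, and dim signals have little order.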
